A study of Homo sapiens with 6 samples.

Results

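The genes described here carry the WNT signal in and out of the cell: WNT ligands, Frizzled receptors, the co-receptors LRP5 and LRP6, and a set of modulators. They were taken by name from the count table: every gene named WNT or FZD with a number and, for WNT, an optional A or B, plus LRP5, LRP6, DKK1, DKK3, SFRP1, AXIN1, AXIN2, NKD1, NKD2, RNF43, ZNRF3, LEF1, TCF7, TCF7L1 and TCF7L2. The rule gave 44 genes out of 58733 named entries, namely 19 ligands, 10 Frizzled receptors, 2 co-receptors, 3 secreted antagonists, 2 E3 ubiquitin ligases acting on Frizzled, 4 cytoplasmic modulators and 4 nuclear factors. No expression value entered the rule, but the genes were chosen with earlier results of these data known. RNA was measured in MDA-MB-231, an established human cell line derived from a triple-negative breast cancer. Over 72 h the cells received either DMSO, the solvent, or Azeliragon at 2 µM. Azeliragon is a small molecule that blocks RAGE, a cell surface receptor. Each condition had 3 libraries of polyadenylated RNA, named a, b and c. The series title places the work in RAGE and SNAIL signalling and epithelial-mesenchymal plasticity.

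WNT proteins are secreted, lipid-modified ligands that bind a Frizzled receptor. In the canonical branch, the ligand joins Frizzled to LRP5 or LRP6, the destruction complex built on AXIN stops degrading beta-catenin, and beta-catenin enters the nucleus to work with the TCF and LEF factors. Other ligands, WNT5A and WNT5B among them, are known mainly for signalling through Frizzled without beta-catenin, and MDA-MB-231 is known as a line that secretes DKK1. Secreted antagonists such as DKK1 block LRP5 and LRP6, while RNF43 and ZNRF3 remove Frizzled from the cell surface.

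Library totals ran from 41455979 to 44313584 counts, so that 3 reads stood for 0.0665 to 0.0723 CPM (counts scaled to a common library size). On the first principal component, which held 37.6% of the variance, DMSO a lay at -0.23, away from DMSO b and c at 30.1 and 33.7 and from the Azeliragon libraries at -23 to -19. The 6 called genes described first are therefore also given without DMSO a, as are the called genes of the wider pathway. Whether a, b and c were separate cultures is not stated. The p-values therefore reflect only scatter between libraries of a group, possibly for technical reasons. The test drew each gene's scatter toward the trend over all genes tested. A set of 6 mesenchymal or basal markers summed to 5550 to 5822 CPM in every library. Of 7 luminal or epithelial markers, 4 were under 1 CPM in all libraries (CDH1, PGR, ESR1 and FOXA1). The others were present over the 6 libraries: GATA3 at 21.1 to 28.8 CPM, EPCAM at 7.38 to 9.43 CPM and ERBB3 at 2.41 to 4.01 CPM. The 7 summed to 38.3 to 41.04 CPM in DMSO and 33.3 to 36.7 CPM with Azeliragon. The part of this difference in the results was not tested. The 4 immune and 3 endothelial markers and 3 of the 4 fibroblast markers were under 1 CPM throughout.

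Azeliragon was accompanied by a split among the WNT genes. The ligands WNT9A and WNT7B and the co-receptor LRP5 fell, while the ligand WNT10B, the receptor FZD8 and the antagonist DKK1 rose. Enough reads for a test were present for 27 of the 44 genes, and 6 of these 27 (22.2%) passed an adjusted p of 0.05 in edgeR's quasi-likelihood test with Benjamini-Hochberg adjustment, 3 higher and 3 lower. The same test called 6.27% of all 16081 genes tested, 2.75% higher and 3.53% lower. Because the genes were chosen with earlier results known, the share of 22.2% is not independent evidence of an excess. The median log2 fold change of the 27 was 0.00, beside -0.004 over all genes tested. The highest and lowest libraries of the groups did not overlap for 13 of the 27 genes, against 25.3% of all tested genes with a unique name. Of these 13, 7 were not called: WNT3, WNT5B, WNT10A, FZD1, FZD2, TCF7 and TCF7L1. In a bulk sample, fewer cells that make an RNA and less RNA per cell cannot be told apart.

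**Figure D1:**
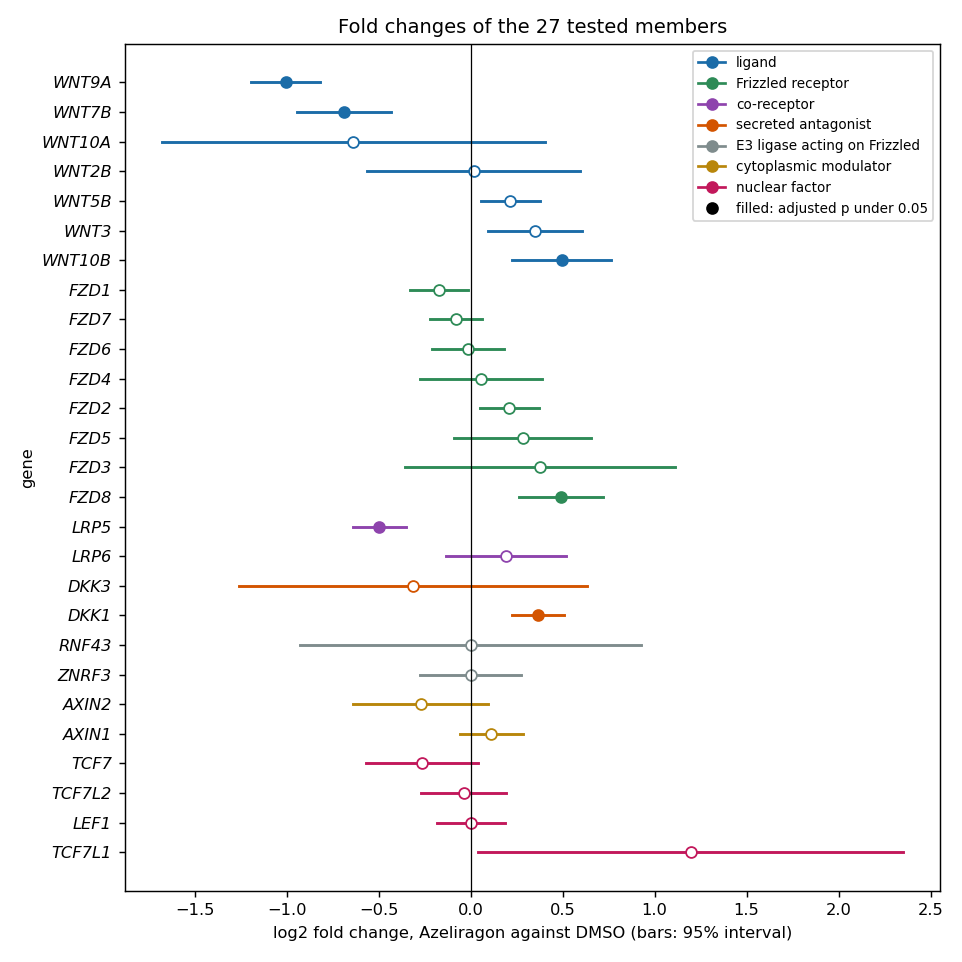
Log2 fold change of each of the 27 tested genes, Azeliragon against DMSO, on the horizontal axis, with bars for the 95% interval; genes are grouped by role and filled points passed an adjusted p of 0.05. The filled points are WNT9A, WNT7B and LRP5 on the lower side and WNT10B, FZD8 and DKK1 on the higher side, and the widest interval belongs to TCF7L1.

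Most ligand genes were silent or close to it. No read was found in any of the 6 libraries for WNT1, WNT6, WNT7A, WNT8A and WNT9B, and WNT2, WNT3A, WNT4, WNT5A, WNT8B, WNT11 and WNT16 had at most 13 reads in a library. A count of 0 allows 0.0665 to 0.0723 CPM, by counting error alone. WNT5A had 5 reads in DMSO c and none elsewhere. WNT11 had 13 reads in DMSO b and 1 in Azeliragon c. The 7 tested ligands were WNT2B, WNT3, WNT5B, WNT7B, WNT9A, WNT10A and WNT10B, of which 1 rose and 2 fell.

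WNT9A, a ligand best known from joint and blood stem cell development, showed the lowest adjusted p of the 27. It lies on the minus strand at chr1:227918656-227947898 (GRCh38). Its level was 37.7, 36.7 and 37.5 CPM in DMSO a, b and c and 18.9, 20.04 and 16.8 CPM in Azeliragon a, b and c. Every Azeliragon library lay well under every DMSO library, and the 3 DMSO libraries lay close together. The means were 37.3 ± 0.56 and 18.6 ± 1.6 CPM (SD, n = 3 each), a log2 fold change of -1.003 (SE 0.09), or 2.00-fold lower (95% interval 1.76 to 2.28, edgeR adjusted p = 3.89e-05). Leaving out any library gave a log2 fold change between -1.06 and -0.94, and the call held each time; without DMSO a the value was -0.99.

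WNT9A was the ligand with the largest called change and DKK1 the most abundant of the 44 genes. They were picked because they moved in opposite directions and differ in the motif marked below, so the contrast was fixed by this choice. The sequence upstream of the start site is shown for both. Each is the 250 bases before the RefSeq start site (GRCh38.p14), written 5′ to 3′ on the strand of the gene; WNT9A is chr1:227947933-227948182 on the minus strand and DKK1 is chr10:52314031-52314280 on the plus strand. Capitals mark the letters CTTTGA, a form of the TCF/LEF core, on either strand. TCAAAG is the same letters read from the other strand. Other forms of the core were not searched and are not marked.
WNT9A: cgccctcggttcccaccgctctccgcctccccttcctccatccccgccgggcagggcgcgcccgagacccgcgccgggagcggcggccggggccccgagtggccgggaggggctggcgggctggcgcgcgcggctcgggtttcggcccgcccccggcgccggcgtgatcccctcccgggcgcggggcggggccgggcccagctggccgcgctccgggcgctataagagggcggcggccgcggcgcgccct
DKK1: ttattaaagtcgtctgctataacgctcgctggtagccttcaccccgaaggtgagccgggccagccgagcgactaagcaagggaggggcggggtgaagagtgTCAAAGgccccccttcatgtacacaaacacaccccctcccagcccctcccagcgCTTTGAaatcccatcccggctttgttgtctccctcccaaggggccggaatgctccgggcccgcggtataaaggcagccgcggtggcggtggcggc
DKK1 held CTTTGA in 2 places, starting at positions -149 and -95 relative to the start site, and WNT9A held it in none. FZD8, which rose, and LRP5, which fell, also held none. A link between these letters and the direction of change was not tested. The DKK1 stretch had 62.8% G and C and the WNT9A stretch 84.4%, beside a median of 58.0% over all RefSeq promoters in the table. A match is a run of letters and no evidence of binding.

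Of the 44 genes, 30 had an upstream sequence in that table, with 37 start sites in all; WNT7B and WNT10B were among the 14 without. DKK1 was the 1 gene of the 30 with CTTTGA, which was present at 2.70% of the 37 start sites and at 11.2% of all 35116. The letters CAGGTG, an E-box of the kind that SNAIL factors bind, were present on either strand for 9 of the 30 genes: AXIN1, FZD5, NKD2, TCF7, WNT2B, WNT3A, WNT5A, WNT7A and WNT9B. That was 24.3% of their 37 start sites, against 17.5% of all. None of these 9 was among the 4 called genes with a sequence, DKK1, FZD8, LRP5 and WNT9A. The letters were present for 4 of the 17 tested genes with a sequence, so 4 called genes are too few to read this absence. WNT3A, WNT5A, WNT7A, WNT9B and NKD2 had too few reads for a test.

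WNT7B, a canonical ligand studied in lung, kidney and bone development, lies on the minus strand at chr22:45920362-45977129. It was measured at 22.0, 17.7 and 22.5 CPM in DMSO a, b and c and at 11.7, 14.6 and 12.3 CPM in Azeliragon a, b and c. All 3 Azeliragon libraries were lower than the lowest DMSO library, DMSO b. Its mean fell from 20.7 ± 2.6 to 12.9 ± 1.5 CPM (SD, n = 3 each), a log2 fold change of -0.69 (SE 0.12), or 1.61-fold lower (interval 1.35 to 1.92, edgeR adjusted p = 0.00438). Without each library in turn, the log2 fold change ran from -0.79 to -0.62, and without DMSO a it was -0.64.

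WNT10B, a canonical ligand known for restraining fat cell formation and present in some triple-negative tumours, was the ligand that rose. It lies on the minus strand at chr12:48965340-48971763. Its level was 5.23, 6.07 and 4.94 CPM in DMSO a, b and c and 7.30, 7.77 and 7.81 CPM in Azeliragon a, b and c. The Azeliragon libraries lay close together and above every DMSO library. The mean went from 5.41 ± 0.59 to 7.63 ± 0.28 CPM (SD, n = 3 each), a log2 fold change of 0.50 (SE 0.12), or 1.41-fold higher (interval 1.17 to 1.70, edgeR adjusted p = 0.0333). This call was lost without DMSO c (adjusted p = 0.0892) and without Azeliragon a (0.0969), b (0.129) or c (0.144), and the log2 fold change was 0.47 without DMSO a. With a replicate block for the shared letters, its adjusted p was 0.0518.

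WNT5B, the most abundant WNT ligand per transcript length, did not pass the test. Its level was 52.8, 58.5 and 60.8 CPM in DMSO a, b and c and 64.8, 69.3 and 65.6 CPM in Azeliragon a, b and c. The groups did not overlap, with DMSO a the lowest library. The log2 fold change was 0.22 (SE 0.07, 95% interval 0.05 to 0.38, edgeR adjusted p = 0.118). With each library's trend of level with transcript length and GC content removed, it was 0.28 (edgeR adjusted p = 0.00410). Without 1 library at a time it ran from 0.16 to 0.26 and did not pass (edgeR adjusted p 0.0649 to 0.36).

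WNT3, a canonical ligand required for axis formation in the embryo, was also higher in each Azeliragon library without passing the test. It was measured at 6.38, 5.86 and 5.65 CPM in DMSO a, b and c and at 7.19, 8.19 and 7.45 CPM in Azeliragon a, b and c. The lowest Azeliragon library lay above the highest DMSO library. The log2 fold change was 0.35 (SE 0.12, 95% interval 0.10 to 0.61, edgeR adjusted p = 0.109), and without DMSO a it was 0.40 (edgeR adjusted p = 0.0299). The remaining tested ligands had few reads: WNT2B averaged 1.09 CPM in DMSO and 1.10 CPM with Azeliragon, and WNT10A 0.404 and 0.259 CPM. Exons of WNT2B overlap those of ST7L on the opposite strand over 2661 bases, so its count is uncertain.

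**Figure D2:**
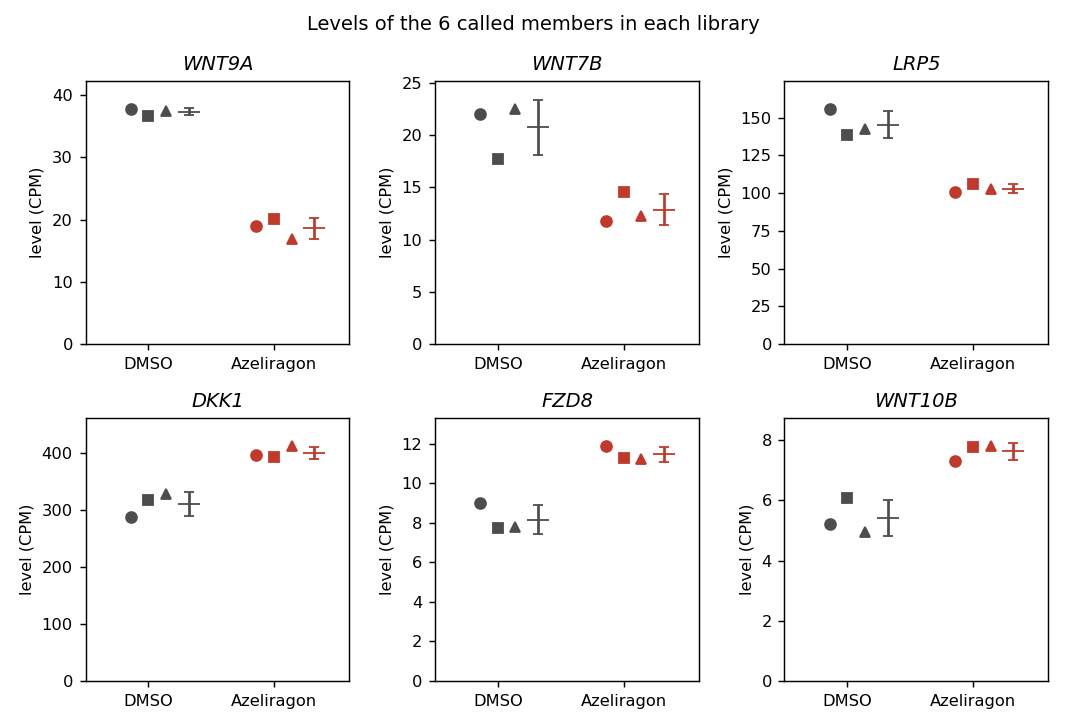
Level in CPM of the 6 called genes in each library, with a circle for library a, a square for b and a triangle for c, and beside them the group's mean with bars for the SD (n = 3); each axis starts at 0. For each gene the DMSO and Azeliragon points do not overlap, as for WNT9A at 36.7 to 37.7 CPM against 16.8 to 20.04 CPM.

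The make-up of the ligand RNA differed between the groups, with a larger share of WNT5B and a smaller share of WNT9A and WNT7B under Azeliragon. Levels between genes were compared as CPM per kilobase of the longest GENCODE transcript (RPKM). Summed over all 19 ligands the level was 44.2 ± 1.7 RPKM in DMSO and 42.9 ± 1.9 RPKM with Azeliragon (SD, n = 3 each). WNT5B made up 56.4% ± 2.1 of that sum in DMSO and 67.5% ± 0.56 with Azeliragon. WNT9A went from 21.3% ± 0.92 to 10.9% ± 0.74 and WNT7B from 11.99% ± 1.5 to 7.65% ± 0.55. The share of WNT10B went from 5.40% ± 0.66 to 7.84% ± 0.31, and that of WNT3 from 4.04% ± 0.40 to 5.29% ± 0.13. Shares add up to a fixed whole, so a fall in WNT9A raises the others, and they are given as a description with no test. They depend on the length used: with the union of all exons, WNT5B made up 43.5% in DMSO and 55.9% with Azeliragon, and WNT9A 30.7% and 16.9%, of a sum of 30.6 ± 0.88 and 27.7 ± 1.3 RPKM (SD, n = 3 each).

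**Figure D3:**
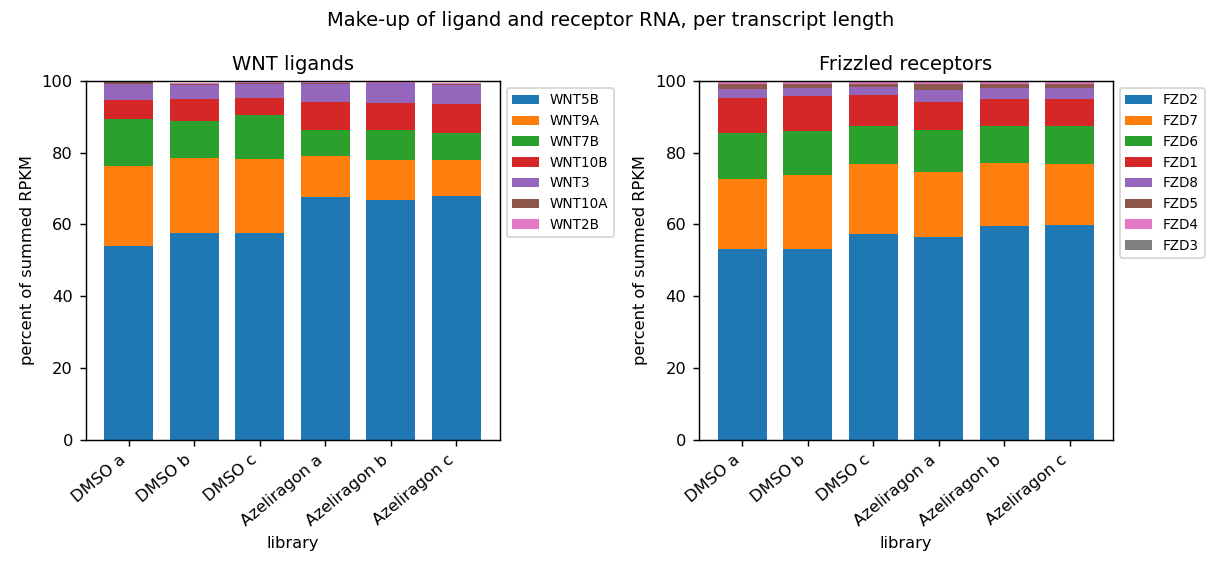
Share of the summed ligand level and of the summed Frizzled level (percent of summed RPKM) held by each gene, in each of the 6 libraries. WNT5B holds 56.4% of the ligand sum in DMSO and 67.5% with Azeliragon on average, while WNT9A goes from 21.3% to 10.9%; FZD2 holds the largest share of the Frizzled sum in every library.

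WNT genes often lie side by side in the genome, and 4 pairs of neighbouring ligand genes were less than 100 kb apart. In each pair nearly all reads came from 1 gene. WNT9A had 7287 reads over the 6 libraries and WNT3A, 59152 bases away, had 5. WNT10B had 1688 and WNT1, 6689 bases away, had 0. WNT3 had 1760 and WNT9B, 46 bases away as annotated, had 0. WNT10A had 86 and WNT6, 6129 bases away, had 0.

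Among the Frizzled receptors, 8 of 10 were tested, 1 rose and none fell in edgeR, DESeq2 or limma-voom; FZD1 was lower at an unadjusted p under 0.05, and FZD9 and FZD10 had no read in any library. FZD8, a receptor for canonical ligands, lies on the minus strand at chr10:35638249-35642278. It was measured at 8.99, 7.71 and 7.76 CPM in DMSO a, b and c and at 11.9, 11.3 and 11.2 CPM in Azeliragon a, b and c. The DMSO libraries all lay under the Azeliragon libraries, with DMSO a the nearest. Its mean rose from 8.16 ± 0.72 to 11.5 ± 0.37 CPM (SD, n = 3 each), a log2 fold change of 0.49 (SE 0.11), or 1.41-fold (interval 1.20 to 1.65, edgeR adjusted p = 0.0153). The call was lost without DMSO b (adjusted p = 0.0848) and without Azeliragon a (0.0859), b (0.0622) or c (0.0591), and without DMSO a the log2 fold change was 0.57. The microRNA gene MIR4683 lies in its exons over 81 bases on the same strand.

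FZD2, a receptor often studied with WNT5A and WNT5B, had the highest level per length of the 8, 47.4 RPKM in DMSO. It was measured at 100.8, 93.3 and 105.8 CPM in DMSO a, b and c and at 107.6, 122.0 and 117.6 CPM in Azeliragon a, b and c. The groups did not overlap, though Azeliragon a lay close to DMSO c. The log2 fold change was 0.21 (SE 0.07, 95% interval 0.05 to 0.37, edgeR adjusted p = 0.121). It passed without DMSO a, at 0.22 (edgeR adjusted p = 0.0139), and with the length and GC trend removed, at 0.29 (edgeR adjusted p = 0.00603).

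FZD1, another broadly expressed receptor, was lower in each Azeliragon library without passing the test. Its level was 60.8, 56.5 and 52.8 CPM in DMSO a, b and c and 49.7, 51.2 and 50.2 CPM in Azeliragon a, b and c. DMSO c lay nearest to the Azeliragon libraries. The log2 fold change was -0.17 (SE 0.07, 95% interval -0.33 to -0.01, edgeR adjusted p = 0.209), and -0.27 with the length and GC trend removed (edgeR adjusted p = 0.00871). Without 1 library at a time it ran from -0.22 to -0.12 and did not pass (edgeR adjusted p 0.12 to 0.45).

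FZD7, a receptor linked to mesenchymal and stem-like breast cancer cells, and FZD6, which works mainly in planar polarity, did not pass the test. FZD7 was measured at 67.8, 66.5 and 65.9 CPM in DMSO a, b and c and at 62.7, 65.9 and 61.0 CPM in Azeliragon a, b and c, a log2 fold change of -0.08 (95% interval -0.22 to 0.06, edgeR adjusted p = 0.546). FZD6 was measured at 43.5, 38.7 and 34.7 CPM in DMSO a, b and c and at 39.97, 38.3 and 37.5 CPM in Azeliragon a, b and c, a log2 fold change of -0.01 (95% interval -0.21 to 0.18, edgeR adjusted p = 0.954). In both genes the libraries of the groups overlapped, and for FZD6 the 3 DMSO libraries spanned all those of Azeliragon.

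FZD5, a receptor for canonical ligands in gut and eye, had its highest library in each group in replicate a. It was measured at 8.88, 5.86 and 6.21 CPM in DMSO a, b and c and at 10.1, 7.93 and 7.45 CPM in Azeliragon a, b and c. Only DMSO a lay among the Azeliragon values. The log2 fold change was 0.28 (SE 0.17, 95% interval -0.09 to 0.66, edgeR adjusted p = 0.387), and without DMSO a it was 0.50 (edgeR adjusted p = 0.0125). FZD4 averaged 4.96 CPM over the 6 libraries (log2 fold change 0.06) and FZD3 0.788 CPM (0.38), and neither passed. FZD4 overlaps PRSS23 on the opposite strand over 1399 bases and its count is uncertain. Summed over the Frizzled genes, the level was 86.9 ± 3.3 RPKM in DMSO and 93.5 ± 3.4 RPKM with Azeliragon, of which FZD2 made up 54.5% ± 2.4 and 58.6% ± 1.8 (SD, n = 3 each, no test).

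Of the co-receptors, LRP5 fell and LRP6 did not pass the test. LRP5, which is known for its part in bone mass and eye vessel growth, lies on the plus strand at chr11:68312609-68449275. It was measured at 156, 138 and 142 CPM in DMSO a, b and c and at 101, 106 and 102.5 CPM in Azeliragon a, b and c. DMSO a was the highest library, and the lowest DMSO library lay far above the Azeliragon libraries. The mean fell from 145 ± 9.0 to 103 ± 2.7 CPM (SD, n = 3 each), a log2 fold change of -0.50 (SE 0.07), or 1.41-fold lower (interval 1.28 to 1.56, edgeR adjusted p = 0.000850). Without DMSO a the log2 fold change was -0.44.

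LRP6, the closest relative of LRP5 and its partner in canonical signalling, was measured at 18.2, 14.3 and 11.3 CPM in DMSO a, b and c and at 16.7, 15.1 and 18.4 CPM in Azeliragon a, b and c. DMSO a lay among the Azeliragon libraries. The log2 fold change was 0.19 (SE 0.15, 95% interval -0.13 to 0.52, edgeR adjusted p = 0.512), and without DMSO a it was 0.38 (edgeR adjusted p = 0.0147). Per length, LRP5 stood at 28.2 RPKM in DMSO and LRP6 at 1.46 RPKM.

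DKK1, a secreted antagonist that binds LRP5 and LRP6 and keeps them from Frizzled, rose. It lies on the plus strand at chr10:52314296-52318042, downstream of the sequence shown with WNT9A. Its level was 288, 317 and 327 CPM in DMSO a, b and c and 396, 393 and 412 CPM in Azeliragon a, b and c. The Azeliragon libraries all exceeded the highest DMSO library, and DMSO a was the lowest of the 6. The mean rose from 311 ± 20.5 to 400.5 ± 10.3 CPM (SD, n = 3 each), a log2 fold change of 0.37 (SE 0.07), or 1.29-fold (interval 1.17 to 1.42, edgeR adjusted p = 0.00536). The call was lost without Azeliragon c (edgeR adjusted p = 0.0596), and without DMSO a the log2 fold change was 0.31. Antisense gene PRKG1-AS1 overlaps its exons over 212 bases, and reads from the pair cannot be told apart without strand.

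DKK3, a DKK relative that does not act through LRP5 and LRP6 in the same way, averaged 0.841 CPM in DMSO and 0.676 CPM with Azeliragon and did not pass (log2 fold change -0.31, 95% interval -1.26 to 0.63). SFRP1, a decoy that binds WNT proteins, had at most 2 reads in a library and was not tested.

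The Frizzled-removing ligases and the cytoplasmic modulators held no called gene in edgeR, DESeq2 or limma-voom, and 0 of the 4 tested had an unadjusted p under 0.05. ZNRF3 was measured at 18.6, 15.2 and 13.0 CPM in DMSO a, b and c and at 14.5, 16.8 and 15.5 CPM in Azeliragon a, b and c, so that DMSO a and c enclosed all other libraries. Its log2 fold change was 0.00 (95% interval -0.27 to 0.27, edgeR adjusted p = 0.998). RNF43 averaged 0.429 CPM in DMSO and 0.427 CPM with Azeliragon, and it shares 4326 exon bases with AC004687.2 on its own strand, so its count is uncertain. AXIN1, the scaffold of the destruction complex, was measured at 63.7, 69.5 and 75.0 CPM in DMSO a, b and c and at 70.8, 80.4 and 73.9 CPM in Azeliragon a, b and c. These values overlapped, with a log2 fold change of 0.11 (SE 0.08, 95% interval -0.06 to 0.29, edgeR adjusted p = 0.464). AXIN2, a scaffold like AXIN1 and a widely read target of beta-catenin, averaged 3.78 ± 0.47 CPM in DMSO and 3.13 ± 0.39 CPM in the treated libraries (SD, n = 3 each). Its log2 fold change was -0.27 (95% interval -0.64 to 0.09; adjusted p = 0.399 by edgeR). It overlaps AC004805.1 on the same strand over 1316 bases. NKD1 and NKD2, antagonists that bind Dishevelled, had no read in any library.

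All 4 nuclear factors were tested and none was called in edgeR, DESeq2 or limma-voom; 1, TCF7L1, had an unadjusted p under 0.05. LEF1, the best known partner of beta-catenin with TCF7, was measured at 23.2, 21.2 and 23.5 CPM in DMSO a, b and c and at 21.8, 22.2 and 24.0 CPM in Azeliragon a, b and c. The groups overlapped almost fully (log2 fold change 0.00 with an edgeR adjusted p of 0.995, interval -0.18 to 0.19). TCF7L2, the TCF factor most studied in gut and in diabetes, was measured at 23.2, 20.6 and 17.9 CPM in DMSO a, b and c and at 21.2, 18.7 and 20.3 CPM in Azeliragon a, b and c. DMSO a and c again enclosed every Azeliragon library (log2 fold change -0.04 with an edgeR adjusted p of 0.885, interval -0.27 to 0.19). TCF7 averaged 4.86 CPM over the 6 libraries (log2 fold change -0.26, edgeR adjusted p = 0.318). TCF7L1, known mainly as a repressor, averaged 0.238 CPM in DMSO and 0.547 CPM with Azeliragon. Its groups did not overlap, but the 95% interval of its log2 fold change ran from 0.04 to 2.35 (edgeR adjusted p = 0.227).

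In DMSO, the level per length ran from 173.6 RPKM for DKK1 through 47.4 for FZD2, 28.2 for LRP5, 24.9 for WNT5B and 17.3 for FZD7. AXIN1 at 10.9, FZD6 at 10.3, WNT9A at 9.39, FZD1 at 8.15, LEF1 at 6.51 and WNT7B at 5.29 RPKM followed. The lowest tested gene was FZD3 at 0.0499 RPKM. Of the 26 pairs of neighbours in this order, 13 overlapped in their libraries and cannot be ranked beyond their spread. The length used matters for WNT5B, whose level was 24.9 RPKM with its longest transcript and 13.3 RPKM with the union of its exons.

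Leaving out 1 library at a time split the 6 calls. WNT9A, WNT7B and LRP5, the genes that fell, stayed called whichever library was left out, and DKK1, FZD8 and WNT10B, those that rose, each lost the call at least once. Without DMSO a, 10 of the 27 genes were called, 7 higher and 3 lower, against 23.7% of all genes tested in that fit. The 10 held all 6 named above plus WNT3, FZD2, FZD5 and LRP6. Without Azeliragon c the count was 3, where 2.7% of all genes were called. With the length and GC trend removed, 9 were called, the same 6 plus WNT5B, FZD2 and FZD1, and 11.2% of all genes. In these 3 fits the count and the share called over all genes moved in the same direction.

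**Figure D4:**
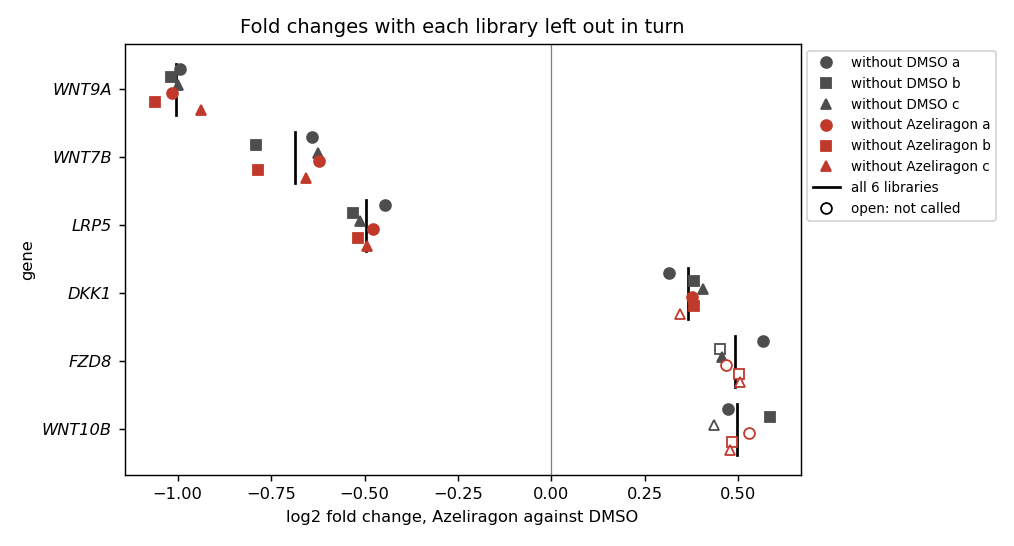
Log2 fold change, Azeliragon against DMSO, of the 6 called genes with all libraries and without each library in turn; filled points passed an adjusted p of 0.05. WNT9A stays between -1.06 and -0.94 and is filled throughout, while WNT10B is open without DMSO c and without each of the Azeliragon libraries.

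Beyond these genes, 116 further WNT pathway genes in 9 classes were read from the same fit. Enough reads were present for 84, of which 5 rose and 4 fell (10.7%, against 6.27% of all genes tested). The list was written with earlier results of these data known, so this share is not independent evidence of an excess. Of the 9 called genes, 4 came from the class listed as targets of beta-catenin, where 16 were tested. WLS, the carrier that brings WNT proteins to the cell surface, rose from 138 ± 6.1 to 165 ± 5.4 CPM (SD, n = 3 each; log2 fold change 0.25, edgeR adjusted p = 0.0333). Its exons meet those of GNG12-AS1 on the opposite strand over 111 bases. PORCN, the enzyme that adds the lipid to WNT proteins, did not pass (log2 fold change -0.20, edgeR adjusted p = 0.418). No gene was called among the 6 tested other receptors, where PTK7 was the most abundant, the 5 tested other antagonists, where TMEM131L was, or the R-spondins and their receptors, by edgeR, DESeq2 or limma-voom. In that last class LGR4 alone was tested (log2 fold change 0.46, edgeR adjusted p = 0.163), and it alone of these 12 genes had an unadjusted p under 0.05.

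CXXC5, a zinc finger protein that binds Dishevelled, fell from 43.9 ± 2.8 to 27.6 ± 1.4 CPM (SD, n = 3 each, log2 fold change -0.67, edgeR adjusted p = 0.000399). It was the 1 called gene of 14 tested transducers, a share of 7.14%, near the 6.27% of all genes tested. CSNK1G2 was the most abundant transducer not called. AMER1, a membrane anchor of the destruction complex, rose from 6.84 ± 1.0 to 10.04 ± 0.46 CPM (SD, n = 3 each; log2 fold change 0.55, edgeR adjusted p = 0.0200). It was the 1 called gene of 13 in the class of the destruction complex and beta-catenin, a share of 7.69%, also near 6.27%. CTNNB1, which encodes beta-catenin, was measured at 591, 578 and 577 CPM in DMSO a, b and c and at 521, 517 and 512 CPM in Azeliragon a, b and c. The libraries did not overlap, but the gene did not pass (log2 fold change -0.17, edgeR adjusted p = 0.0955). TLE1, a Groucho co-repressor that binds TCF factors, rose from 60.9 ± 1.7 to 81.5 ± 1.8 CPM (SD, n = 3 each; log2 fold change 0.42, edgeR adjusted p = 0.00185). Its relative AES, the most abundant nuclear partner not called, had a log2 fold change of -0.06 (edgeR adjusted p = 0.751). PRICKLE2, of the planar polarity pathway, fell from 13.3 ± 0.75 to 7.23 ± 1.4 CPM (SD, n = 3 each; log2 fold change -0.88, edgeR adjusted p = 0.00218), while SCRIB, the most abundant of that class, did not pass (0.14, edgeR adjusted p = 0.193). PRICKLE2 overlaps PRICKLE2-AS1 on the opposite strand over 3362 bases.

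In the class listed as targets of beta-catenin, 2 genes rose and 2 fell of 16 tested (25.0%, against 6.27% of all genes tested). KLHL29, 1 of the 2 that rose, is not an established readout of beta-catenin, and without it, a count added after seeing the data, the class held 1 higher and 2 lower of 15; the class was written with earlier results known and is not independent evidence of a direction. BMP4, a secreted growth factor, was measured at 270.2, 284 and 301 CPM in DMSO a, b and c and at 160, 157 and 164 CPM in Azeliragon a, b and c. The groups lay far apart (log2 fold change -0.83, SE 0.06, edgeR adjusted p = 2.25e-05). EPHB2, a receptor for ephrins, fell (log2 fold change -0.33, edgeR adjusted p = 0.00899). CCND1, which encodes cyclin D1, rose from 736 ± 37.1 to 895 ± 23.6 CPM (SD, n = 3 each; log2 fold change 0.28, edgeR adjusted p = 0.0157), and KLHL29 rose by 0.46 on the log2 scale (edgeR adjusted p = 0.00819). CCND1 overlaps LTO1 on the opposite strand over 497 bases. CD44, the most abundant of the class not called, had a log2 fold change of 0.05 (edgeR adjusted p = 0.682). Of the 9 called genes, BMP4, CXXC5, TLE1 and PRICKLE2 kept their call without each library in turn. WLS, AMER1, CCND1, EPHB2 and KLHL29 lost it at least once. Without DMSO a all 9 kept their call and direction, with log2 fold changes of 0.23 for WLS, -0.67 for CXXC5, 0.69 for AMER1, 0.42 for TLE1, -0.85 for PRICKLE2, -0.87 for BMP4, -0.31 for EPHB2, 0.32 for CCND1 and 0.54 for KLHL29. In that fit 31 of the further pathway genes were called, 19 higher and 12 lower, where 23.7% of all genes were. Without DMSO b or Azeliragon b, 4 were called, where 2.86% and 3.01% of all genes were.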

How the data were processed

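Polyadenylated RNA of 6 libraries of MDA-MB-231 cells was sequenced, and the authors deposited raw counts per gene. The submitters' processing notes list STAR 2.6.1d, featureCounts 1.5.0-p3, limma and GRCh38. Not given in the sources used here are the role of each tool, the strand setting, the gene annotation and how multiply matching reads were handled. Of 58735 entries, 2 named by a number alone, with 0 reads, were left out. GENCODE 29 gave coordinates and lengths, and RefSeq (GRCh38.p14) the upstream sequences.

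All genes passing filterByExpr were fitted together with edgeR 4.0.16 (quasi-likelihood test, TMM scaling) in R 4.3.3, and p-values were Benjamini-Hochberg adjusted over 16081 genes. Levels are CPM with TMM-scaled library sizes; RPKM divides these by the length of the longest transcript. Alternatives used DESeq2 1.42.0, limma 3.58.1 (voom), other scalings and filters, a 1.5-fold minimum (glmTreat), a replicate block, removal of the length and GC trend, and each library left out. The scripts were tested on counts simulated with the same scatter for every gene and without an outlying library such as DMSO a. Whether replicate letters mark pairs is not known, and the main fit did not pair them. Figures were drawn with matplotlib 3.10.9 in Python 3.11.15.

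Every gene past the threshold or averaging at least 5 CPM is given in full; of the further pathway genes, those called and the most abundant not called in each class are named. The genes and lists were chosen with earlier results of these data known. Limits from a count of 0 cover counting error only: without molecular identifiers, reads may be copies of a molecule.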

Additional observations from a re-analysis of the deposited data

How the results depend on the processing

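The count of 6 called genes was 6 with RLE size factors, library totals, no filter, a stricter filter, DESeq2 and limma-voom. The shares of all genes called there were 6.31%, 5.80%, 5.78%, 8.06%, 8.84% and 6.39%, in that order. The count was 9 with the length and GC trend removed, where 11.2% of all genes were called. It was 1 (WNT9A) when a change over 1.5-fold was required, where 0.367% of all genes were. Without 1 library at a time it ran from 3 to 10, and the share of all genes called from 2.68% to 23.7%. With a replicate block it was 5, and the 9 further pathway genes became 8, where 5.65% of all genes were called. WNT10B and WLS lost their call. The deviations of same-lettered libraries from their group means had r of 0.0266, 0.0224 and -0.0437 for a, b and c. Between libraries of different letters, r ran from -0.0818 to 0.0641. With 3 libraries per group, these values cannot decide whether the letters mark pairs. The count of further pathway genes was 9 under both other scalings, the stricter filter, DESeq2 and limma-voom, 13 with no filter (5.78% of all genes), 14 with the trend removed and 0 for 1.5-fold; without 1 library it ran from 4 to 31. The shares of all genes are those given for the same settings. No called member changed direction in any setting run.

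Genes near no change reversed sign, and the cause was not tested. With the trend removed, the log2 fold change was -0.12 for WNT2B, -0.0381 for FZD4, -0.0763 for RNF43 and -0.0635 for ZNRF3. It was -0.0016 for LEF1 and -0.0024 for ZNRF3 with the stricter filter, -0.0016 for ZNRF3 with library totals, and -0.0004 with RLE and -0.0037 with DESeq2 for RNF43. Without 1 library at a time, it ran from -0.0721 to 0.16 for WNT2B, -0.0442 to 0.0319 for LEF1, -0.0904 to 0.0732 for FZD6, -0.0639 to 0.15 for FZD4, -0.13 to 0.0572 for TCF7L2, -0.31 to 0.71 for RNF43 and -0.12 to 0.15 for ZNRF3. With library totals, 0 of 54 group means moved by more than 1 SD. Union exon lengths, applied to the shares after seeing the data, moved 14 of 27 ranks by at most 2 places.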
